A study of Homo sapiens with 8 samples.

Results

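The longest human genes spread their exons over introns that can each exceed the length of most whole genes, and the peaks of polyadenylated 3′ ends that lay inside those introns are described here. A member is a peak inside a protein-coding gene of 500 kb or longer (span of its GENCODE basic transcripts) that overlapped no basic exon and no window from 200 bp before to 600 bp after a transcript end. There were 12187 such peaks, 7.93% of the 153624 in the list, and they lay in 250 of the 284 genes of that length. The same position rule gave 41331 peaks in genes of 100 to 500 kb and 31536 in genes under 100 kb.

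The peaks came from poly(A) 3′-sequencing of Kelly, a neuroblastoma cell line in which MYCN is amplified, and of Kelly E9R. The second line is Kelly with a point mutation at the cysteine of CDK12 that THZ531 binds, which arose under rising doses of the inhibitor E9. There were 4 groups, each with 2 libraries after 6 h: Kelly with DMSO, Kelly with THZ531, Kelly E9R with DMSO and Kelly E9R with THZ531. THZ531 binds CDK12 and CDK13 covalently and blocks them, and the labels give 400 nM, whereas the study's methods name another concentration for these lines. The 8 libraries were merged before peaks were called, so a peak has a single value, without a replicate, and drug and solvent cannot be compared. Depth per library is unknown. In a bulk pool, fewer cells with a transcript and less RNA per cell cannot be told apart. Peaks at annotated ends were present for 16 of 16 adrenergic neuroblastoma genes, among them HAND2 and MYCN, for 10 of 12 mesenchymal-type genes and for 1 of 8 genes of other cell types (EPCAM). Among all coding genes an end peak was common. It was present for 68.3% of those of 500 kb or longer, 73.5% of those of 100 to 500 kb and 62.9% of those under 100 kb.

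Cleavage and polyadenylation normally end a transcript a short way downstream of a hexamer, AATAAA in most genes and ATTAAA in many others. Introns hold many such hexamers, and U1 snRNP, which binds 5′ splice site sequences, and the elongation kinase CDK12 are known for keeping the intronic ones unused. Genes with long introns contain the most of them. The assay primes with oligo(dT), which can also anneal to runs of A inside an unprocessed transcript, so the sequence on each side of a peak bears on how it is read. The 3′ end of a peak was taken on the strand of its gene, and the matching window of the other strand served as the background. An A on one strand is a T on the other, so the 2 windows need not hold the same share of A.

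The following 5 sequences show the kind of site that carries a main hexamer. They are the members with the highest −log10 q among those with AATAAA or ATTAAA 10 to 40 bp before the 3′ end and no A-rich sequence after it. A-rich means 6 A in a row or 7 A among 10 bases within 50 bp. Each line gives 60 bases before and 30 after the 3′ end, on the gene strand of GRCh38, with the hexamers that begin 10 to 40 bp before the 3′ end in capitals.
RBMS3, chr3:28758795-28758884 (+): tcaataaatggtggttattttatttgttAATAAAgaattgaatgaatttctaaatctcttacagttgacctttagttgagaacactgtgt
PARD3, chr10:34390787-34390876 (−): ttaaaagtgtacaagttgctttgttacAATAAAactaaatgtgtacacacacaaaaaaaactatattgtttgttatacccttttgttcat
PTPRN2, chr7:158099884-158099973 (−): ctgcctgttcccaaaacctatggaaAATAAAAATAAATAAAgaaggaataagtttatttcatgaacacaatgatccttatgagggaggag
ADGRL2, chr1:81428290-81428379 (+): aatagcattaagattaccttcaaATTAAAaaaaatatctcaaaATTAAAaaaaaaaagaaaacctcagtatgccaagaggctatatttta
CREB5, chr7:28410704-28410793 (+): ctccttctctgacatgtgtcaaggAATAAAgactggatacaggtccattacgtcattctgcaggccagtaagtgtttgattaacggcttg
In RBMS3 the hexamer began 32 bp before the 3′ end, in PARD3 33 bp and in CREB5 36 bp. PTPRN2 held 3 copies in a row, of which the second and the third overlap. In ADGRL2 a run of A stood directly behind the second hexamer, before the 3′ end, and in PARD3 a run of A ended at the 3′ end. The search for A-rich sequence looked only after the 3′ end. Members called free of A-rich sequence can therefore hold a run of A before it.

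Peaks at the annotated ends of the same genes carried the canonical signal, and most intronic peaks did not. AATAAA or ATTAAA stood 10 to 40 bp before the 3′ end in 261 of 379 end peaks, 68.9% (95% Wilson interval 64.0 to 73.3), and in 1818 of 12153 members, 15.0% (14.3 to 15.6). The members counted here are those with coding genes on 1 strand, and the other 34 lay in genes on both strands. A-rich sequence followed 90.3% (89.8 to 90.8) of members but 31.4% (26.9 to 36.2) of end peaks. Peaks of a gene share their source and are not replicates, so the difference was tested over the 194 genes with both kinds of peak. The hexamer was more frequent at the ends than in the introns of 173 genes and less frequent in 17 (exact sign test, adjusted p = 1.56e-33 over 3 features), and A-rich sequence was more frequent in the introns of 169 genes and less frequent in 20 (exact sign test, adjusted p = 1.42e-30).

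The hexamer was still more frequent in members than on the opposite strand of the same peaks. On that strand 4.43% of members had AATAAA or ATTAAA in the same window and 18.0% had A-rich sequence. Any of 12 poly(A) signal (PAS) motifs (AAGAAA or AATAAA or AATACA or AATAGA or AATATA or AATGAA or ACTAAA or AGTAAA or ATTAAA or CATAAA or GATAAA or TATAAA) stood in the 100 bp before the 3′ end in 51.9% on the gene strand and in 32.8% on the opposite strand. Only the gene strand had a motif in 3600 members and only the other strand in 1289 (exact McNemar test, p = 4.59e-249). That test treats peaks of a gene as independent, which they are not. Counted by gene, 187 genes had more motifs on their own strand, 20 had fewer and 43 were tied (exact sign test, p = 3.61e-35). The motifs are rich in A, and A-rich sequence was itself more frequent on the gene strand. These tests therefore cannot tell an excess of poly(A) signals from an excess of A. At annotated ends the 12 motifs reached 88.7% on the gene strand but also 62.5% on the opposite strand, so that the full set separates the strands less than the main hexamers at their usual distance.

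The position of AATAAA differed between members with and without A-rich sequence, in part by definition. An AATAAA after the 3′ end counts toward A-rich sequence, so members without it can hardly have one there. At 5 to 9 bp after the 3′ end they had 1 start on the gene strand and 19 on the opposite strand. Among the 1178 without it, AATAAA began most often 25 to 21 bp before the 3′ end, with 16.7 starts per 100 peaks there against 1.95 on the opposite strand. Of these peaks 46.7% (43.9 to 49.5) had AATAAA or ATTAAA 10 to 40 bp before the 3′ end, against 11.2% on the opposite strand. Among the 10975 with A-rich sequence the share was 11.6%. Their AATAAA starts were densest across the 3′ end itself, where, after the end, the definition favours them. Members with the hexamer and no A-rich sequence numbered 550, which is 4.53% (4.17 to 4.91) of those on 1 strand.

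**Figure D1:**
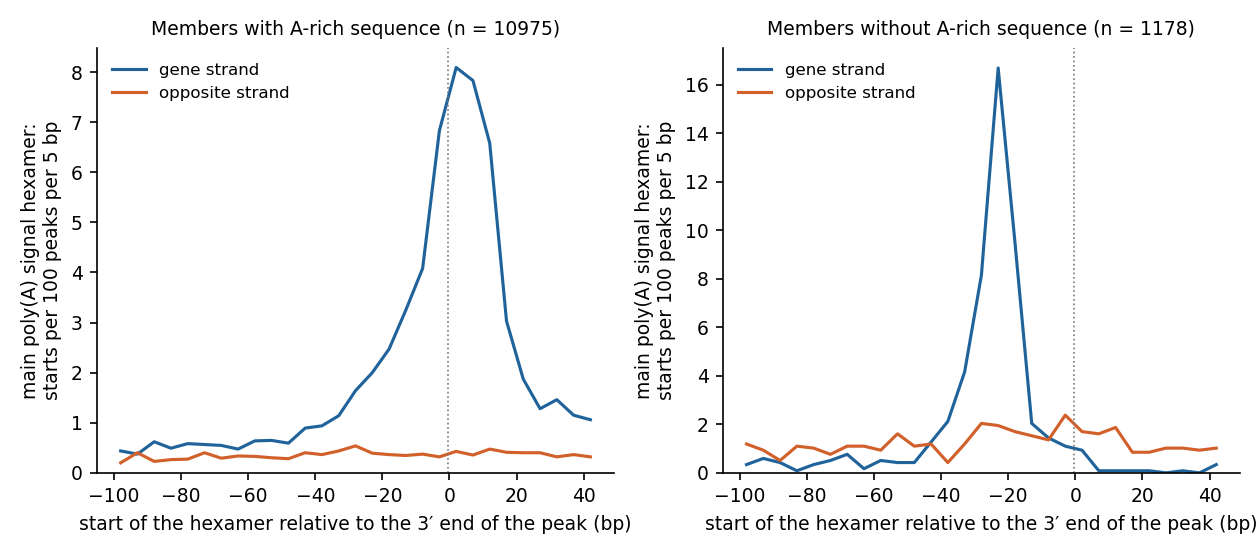
Number of starts of the hexamer AATAAA per 100 members in each 5 bp (y axis) by distance from the 3′ end of the peak in bp (x axis; 0 is the first base after the peak), on the gene strand (blue) and the opposite strand (orange). Members without A-rich sequence (right) have a single maximum of 16.7 starts per 100 peaks 25 to 21 bp before the 3′ end, and those with it (left) have theirs at the 3′ end. Starts after the 3′ end depend on the definition, since AATAAA there counts toward A-rich sequence.

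Other motifs of RNA processing were also asymmetric. A U1 motif (GGTGAG or GGTAAG or GTGAGT) stood in the 500 bp before the 3′ end of 26.1% of members and in 18.4% on the opposite strand, and 160 genes had more on their own strand against 40 with fewer (exact sign test, adjusted p = 5.64e-18). TGTA, bound by the cleavage factor CFIm, stood in the 100 bp before the 3′ end in 33.6% against 29.1% (136 genes against 62, exact sign test, adjusted p = 1.93e-07). TGTGT, a form of the GU-rich element bound by CstF, did not pass in the 50 bp after it, with 4.85% against 5.21% (65 genes against 81, exact sign test, adjusted p = 0.214). In genes of 100 to 500 kb TGTGT stood in 5.80% against 4.45%. These shares describe letters in a window and not the binding of a factor. As with the PAS motifs, the strands can differ in base composition and in repeated sequence. These tests cannot tell that from an excess of the motifs themselves.

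Part of the members shared a repeated sequence before the 3′ end. TGCAGTGAGC, the most frequent 10-base sequence among the members, stood in the 100 bp before the 3′ end of 1930 members, 15.9%, and of 86 on the opposite strand, 0.708%. TCCAGCCTGG stood in 15.9% as well, and both belong to the consensus of the Alu element, the most abundant repeat of the human genome, which ends in an A-rich tail. Among the 1147 members with a stretch of 25 A (3 mismatches allowed) the first sequence was present in 41.0%, among the 9828 with other A-rich sequence in 14.7%, and among the 1178 without A-rich sequence in 0.934%. In genes of 100 to 500 kb 17.2% of intronic peaks had it. The 10-base sequences were chosen as the most frequent in these data, with those of 7 or more A or T left out, so no test is given. Reads with several map positions were kept up to a limit by the authors, and the copy of a repeat that gave a read was not tested.

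Compared with genes of 100 to 500 kb, intronic peaks of the longest genes were followed by A-rich sequence more often and preceded by a main hexamer less often. A-rich sequence followed 90.3% against 83.4%, a difference of 6.94 percentage points. Of the 182 genes of 500 kb or longer with 10 or more peaks, 137 lay above the pooled median gene share, against 766 of 1634 (Fisher's exact test over genes, adjusted p = 1.29e-12 over 6 features). The median gene share was 91.4% (quartiles 86.8 and 94.9) against 86.2% (77.3 and 92.0). AATAAA or ATTAAA 10 to 40 bp before the 3′ end was found in 15.0% against 18.7% (53 of 182 genes above the pooled median against 844 of 1634, Fisher's exact test, adjusted p = 1.53e-08). In genes under 100 kb the shares were 73.2% for A-rich sequence and 21.7% for the hexamer, so that both shares followed gene length in order.

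**Figure D2:**
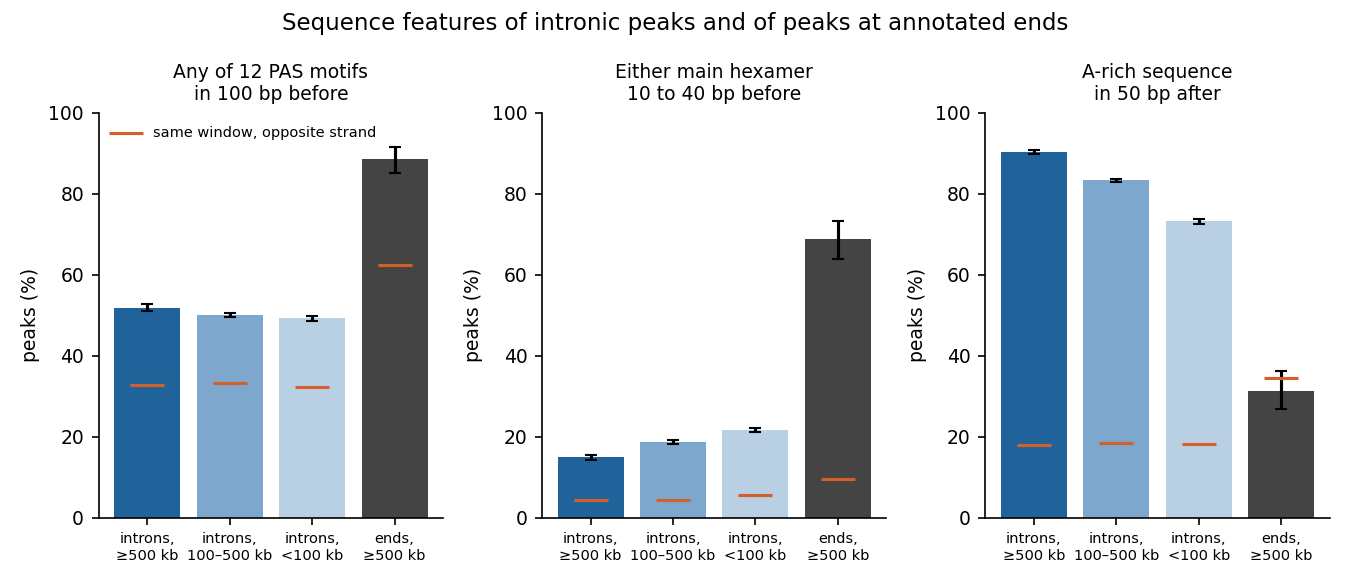
Percent of peaks (y axis) with any of 12 PAS motifs, with AATAAA or ATTAAA 10 to 40 bp before the 3′ end and with A-rich sequence after it, for intronic peaks in 3 classes of gene length and for peaks at annotated ends of genes of 500 kb or longer. Bars carry 95% Wilson intervals (counting error only) and orange lines give the same window on the opposite strand. The hexamer stands at 68.9% at ends and 15.0% in the introns of the same genes, and A-rich sequence at 31.4% and 90.3%.

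The share with any of the 12 motifs did not separate the length classes in the same way. It was 51.9% against 50.2% in genes of 100 to 500 kb, which passed Fisher's exact test over peaks (adjusted p = 0.00163) and not over genes, where 92 of 182 against 771 of 1634 lay above the median (adjusted p = 0.391). With AATAAA and ATTAAA alone in the same 100 bp the order turned, 23.8% against 26.8%. Stretches of 25 A were found in 9.44% of members and 9.38% of peaks in genes of 100 to 500 kb (Fisher's exact test, adjusted p = 0.846 over peaks, 0.0147 over genes). U1 motifs stood before 26.1% and 27.6% of peaks (Fisher's exact test, adjusted p = 0.00163 over peaks, 0.0226 over genes).

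Intronic peaks of the longest genes were low. The pileup is the number of extended reads that the peak caller counted over the summit, recovered from the fold enrichment and the p-value. It had a median of 7 (quartiles 5 and 9, highest 61). The study's methods do not say whether reads with the same start were each counted. No pileup in the whole list exceeded 200, with reads extended to 100 bp. A pileup therefore need not equal the number of RNA ends, which was not tested. In genes of 100 to 500 kb the median was 8 (6 and 10) and in shorter genes 9 (7 and 12), and at annotated ends of the longest genes it was 14. The −log10 q reached 5 in 63.9% (63.1 to 64.8) of members, below the 73.5% of the whole list and the 66.3% of genes of 100 to 500 kb. Over genes, 45 of 182 lay above the pooled median against 795 of 1648 (Fisher's exact test, adjusted p = 2.80e-09). The local background had a median of 0.320 reads per 100 bp here and 0.370 in genes of 100 to 500 kb. Within each class the share with a hexamer rose with height. Of members with a pileup of 7 or less 890 of 6834 had it, of those with 8 to 12 16.7%, and of those with 13 or more 19.7%, while A-rich sequence followed 90.9%, 90.1% and 88.0%.

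Members were spread over the genes at 5.25 per 100 kb of intron (5.16 to 5.35, exact Poisson interval for counting error) in 232 Mb of intron sequence. Members were denser in genes with a peak at an annotated end, with exceptions on both sides. The 194 genes with an end peak held 11440 members, 7.18 per 100 kb, and the 90 without held 747, 1.03 per 100 kb. Of the 747, 401 lay in GPC6, CCSER1 and SORCS1, and the other 87 genes without an end peak had 0.498 per 100 kb. UNC5D and LRMDA, singled out after their values were seen, had an end peak and 0.184 and 0.180 members per 100 kb. All 34 genes without a member also lacked an end peak. These include the adhesion molecule OPCML, the transcription factors FOXP2 and SOX6, the sarcoglycans SGCD and SGCZ and the phosphodiesterase PDE1C. Each of the 194 genes with an end peak had 1 or more members, whereas 94 of 2147 such genes of 100 to 500 kb had no intronic peak. A longer gene offers more intron in which a peak can fall. Per 100 kb of intron the genes with an end peak had 7.18 members here and 10.0 intronic peaks in genes of 100 to 500 kb. A gene held a median of 32 members (quartiles 3 and 69.2), and 51 genes held 50% of them.

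Among genes with an end peak, those of 500 kb or longer had fewer intronic peaks per length of annotated intron. That length was counted from the most upstream annotated start, although in some genes, named below, all members lay far downstream of it. Whether this affects both length classes alike was not tested. Their median was 7.53 per 100 kb against 10.9 in genes of 100 to 500 kb, and 64 of 194 (33.0%) against 1106 of 2147 (51.5%) lay above the pooled median of 10.6 (Fisher's exact test over genes, p = 8.89e-07). Among genes with a strongest end pileup of 10 to 30 the shares were 34.3% and 51.5% (Fisher's exact test, p = 0.000131). The length limit itself passed through similar genes. Just inside it, AFF2 had 0 members, PPP2R2B 42, PPFIA2 43 and SPOCK3 14, and just outside, at 498 kb, DIAPH3 had 52 intronic peaks, CPQ 1, ITPR2 23 and CACNA2D1 64.

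**Figure D3:**
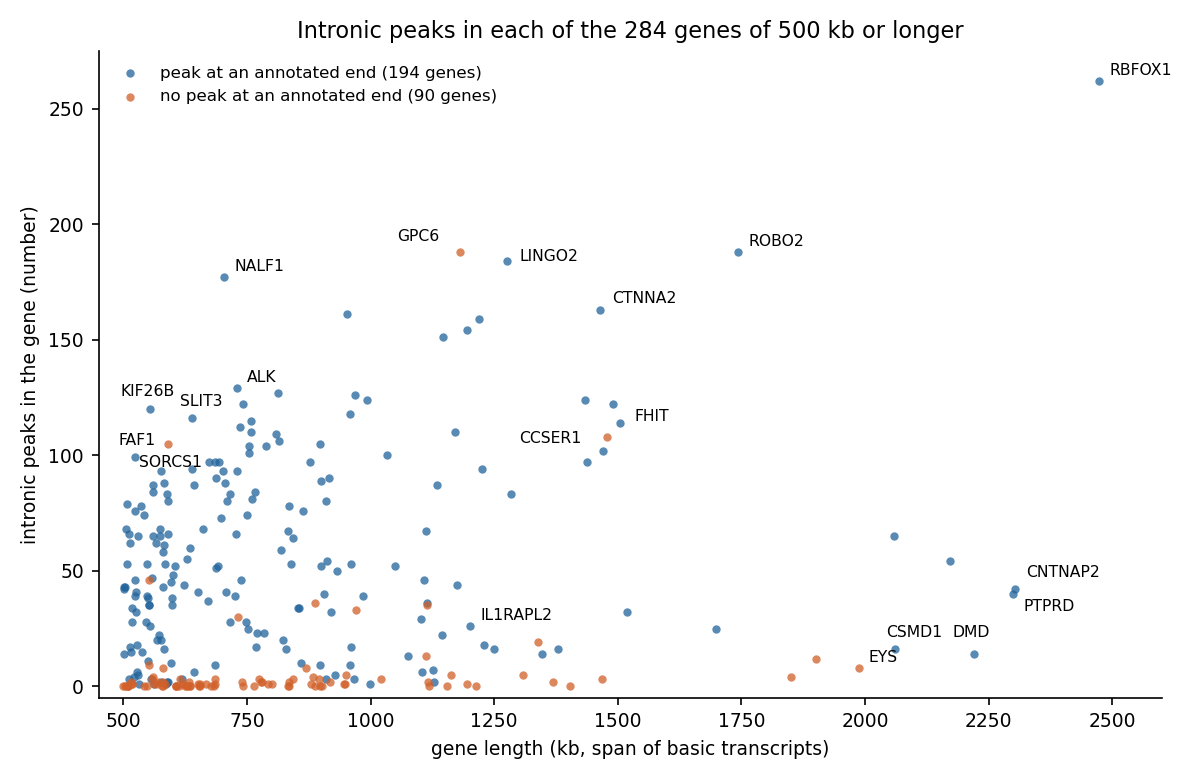
Number of intronic peaks (y axis) in each of the 284 genes by gene length in kb (x axis), for 194 genes with (blue) and 90 without (orange) a peak at an annotated end. RBFOX1 stands apart with 262, and the genes nearest to it in length, CNTNAP2 with 42 and PTPRD with 40, stand low.

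RBFOX1, a splicing regulator of neurons and muscle, held the most members. The longest gene of the class at 2474 kb, it had 262, with pileups from 3 to 22 (median 7), and 258 of them were followed by A-rich sequence and 0 had the hexamer without it. Its 4 end peaks reached a pileup of 17, and 0 of them lay at the most distal annotated end. ROBO2, a receptor for the guidance cue SLIT, and GPC6, a cell-surface glypican, held 188 each. LINGO2, a leucine-rich repeat membrane protein, held 184, and NALF1, an auxiliary factor of the sodium leak channel NALCN, 177. The next were CTNNA2 (163), the neuronal α-catenin, CACNA2D3 (161), an auxiliary subunit of calcium channels, KCNIP4 (159) and DPP6 (151), which bind A-type potassium channels, and AUTS2 (154), a nuclear regulator of neurodevelopment. In these 10 genes the median pileups were 7 to 12, against 7 over all members.

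Of the 35 genes with 100 or more members, 3 had no peak in an end window, GPC6, CCSER1 (108) and the sorting receptor SORCS1 (105). In GPC6 the nearest peak ended 616 bp before the annotated end and in SORCS1 245 bp before it, both upstream of the window that starts 200 bp before the end. In CCSER1 the nearest was 3384 bp before it.

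By density NALF1 led with 25.6 members per 100 kb of intron. KIF26B, a kinesin family member, had 22.4, FAF1, which binds the death receptor FAS, 19.3, SLIT3, a secreted guidance cue, 18.9 and ALK 18.1. NALF1 has 2 introns, and 171 of its 177 members lay in the first. Their pileups ran from 5 to 26 with a median of 12, the highest median of these 5 genes, against 14 at the only end peak.

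ALK, the receptor tyrosine kinase mutated in a part of neuroblastomas, held 129 members with pileups from 3 to 30 (median 9), and its only end peak had 21. Of the 129, 110 were followed by A-rich sequence and 11 had AATAAA or ATTAAA 10 to 40 bp before the 3′ end without it, 86 were A-rich on the gene strand alone and 4 on the opposite strand alone. The members with the first and the third highest −log10 q of these 11 are given as 60 bases before and 30 after the 3′ end, with the hexamer 10 to 40 bp before it in capitals, and the second is not shown.
ALK, chr2:29438447-29438536 (−): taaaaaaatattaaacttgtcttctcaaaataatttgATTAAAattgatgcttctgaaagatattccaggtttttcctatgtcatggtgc
ALK, chr2:29326696-29326785 (−): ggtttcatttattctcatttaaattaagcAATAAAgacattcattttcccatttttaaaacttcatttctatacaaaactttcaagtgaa
Their pileups were 21 and 11, and the marked hexamers begin 23 and 31 bp before the 3′ end. A further ALK site with the hexamer and no A-rich sequence lay 2.78 kb from the gene start, in the first intron, with a pileup of 15.

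SLIT3 held 116 members with pileups from 3 to 52 (median 10.5) and 2 end peaks of up to 56. Its strongest lay in intron 14 of 35, 534 kb from the gene start, and was followed by no A-rich sequence on either strand. This was 1 of the 5 members with the highest −log10 q, which had been chosen for that value. The strongest of all was the only member in UNC5D, a netrin receptor, in intron 1 and 288 kb from the start, with a pileup of 61 at a background of 0.880 and an end peak of 5. LHFPL3 (pileup 40) and PTPRG (40, a receptor phosphatase) followed, then AKAP6 (34, an anchor of protein kinase A in muscle and neurons) and SLIT3. All 5 had a PAS motif in the 100 bp before the 3′ end, 1 of them (PTPRG) had AATAAA or ATTAAA 10 to 40 bp before it, and 2 (LHFPL3 and PTPRG) had A-rich sequence after it. The site in RBMS3 shown above had a pileup of 34 against 26 at the strongest end peak of that gene, and the site in PARD3 had 26 against 16. RBMS3 is an RNA-binding protein and PARD3 a polarity scaffold. The site in PTPRN2, a phosphatase-like protein of secretory vesicles, had 21 against 13 at its strongest end peak. In ADGRL2, a latrophilin, the site was the lower of the pair, with 20 against 26 at the end. The site in CREB5, a transcription factor with 6 members in all, had 24. These pairs compare pileups and not the use of the sites.

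The strongest end peak exceeded the strongest intronic peak in 97 of the 194 genes with both kinds, against 1446 of 2053 (70.4%) in genes of 100 to 500 kb (Fisher's exact test over genes, p = 1.55e-08). These are comparisons of pileup, which need not rank how often ends and intronic sites were used. A gene with more intronic peaks also takes its maximum over more values. Among genes with 30 to 100 intronic peaks the shares were 55.2% and 65.3%, and the difference no longer passed (Fisher's exact test, p = 0.0657).

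Along the genes, peaks were denser close to the start. In the first 5 kb members stood at 10.3 per 100 kb of intron (8.62 to 12.3, 129 peaks), from 5 to 50 kb at 6.57 (6.13 to 7.04), and beyond 500 kb at 4.74 (4.60 to 4.89). Members with the hexamer and no A-rich sequence had a steeper profile. They stood at 2.16 per 100 kb (1.42 to 3.14, 27 peaks) in the first 5 kb, 0.486 (0.372 to 0.624) from 5 to 50 kb and 0.221 (0.150 to 0.314) from 50 to 100 kb, and stayed at 0.214, 0.212 and 0.209 in the 3 bins from 100 kb to the gene end. In genes of 100 to 500 kb the same kind stood at 1.91 (1.68 to 2.16), 0.839 and 0.785 in the first 3 bins, so that the classes overlapped in the first 5 kb and differed beyond it by more than counting error. The intervals do not cover variation between genes. The 27 sites near the start lay in 26 genes with pileups from 4 to 21 (median 11). The strongest by −log10 q were in TBC1D5 at 1.57 kb (pileup 20), MAGI1 at 4.30 kb (15), KIF26B at 4.51 kb (21) and the protein kinase C gene PRKCE at 1.54 kb (16). For this kind of member, A-rich sequence was excluded on the gene strand only. The sites in TBC1D5, MAGI1 and KIF26B had it on the opposite strand, as did some of the other sites near the start, and that in PRKCE did not. The strand of the RNA at these sites was not tested.

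**Figure D4:**
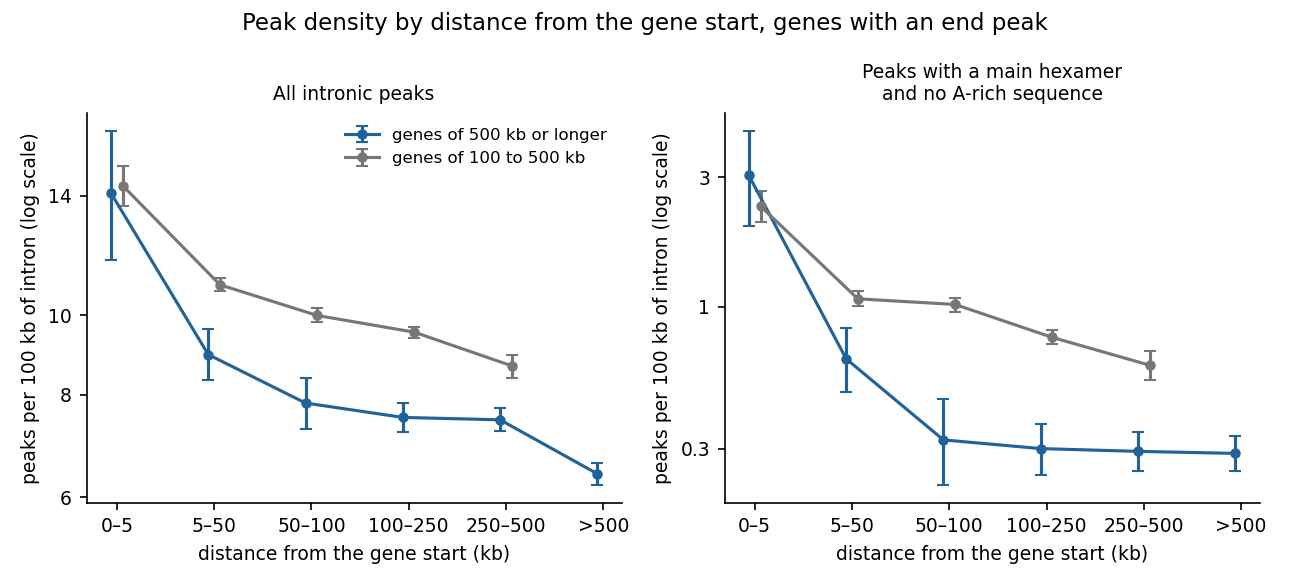
Peaks per 100 kb of intron (y axis, log scale) by distance from the gene start in kb (x axis) in genes with an end peak, for genes of 500 kb or longer (blue) and of 100 to 500 kb (grey), with exact Poisson 95% intervals. Peaks with a main hexamer and no A-rich sequence on the gene strand (right) fall from 3.05 per 100 kb in the first 5 kb to 0.323 at 50 to 100 kb in the longest genes. They then stay level.

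Over whole genes the peaks had no called bias to either side. More members lay in the upstream 50% of intron sequence in 131 genes and in the downstream 50% in 107, with 12 ties (exact sign test, p = 0.136). With peaks of −log10 q of at least 5 alone the counts were 139 and 92 (exact sign test, p = 0.00240). The first intron held 20.7% of the 12155 members that fell between exons of the longest transcript, and 19.2% of the intron length. Median distance from the gene start was 386 kb (quartiles 185 and 611), and 4370 members, 35.9%, lay more than 500 kb from it. Neighbouring members of a gene lay a median of 6.14 kb apart.

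Single genes did have a side. Of the 160 genes with 20 or more members, 14 had under 20% in the upstream 50% of their introns and 6 had over 80%. These genes were singled out after their values were seen. In SHANK2, a postsynaptic scaffold, all 23 members lay beyond 594 kb, and an internal transcript start is annotated at 591 kb. In KIAA1217 all 34 lay beyond 517 kb with an annotated start at 514 kb, and in INPP4B, a phosphoinositide phosphatase, all 20 beyond 442 kb with one at 415 kb. KAZN had 92 of 94 in the downstream part. In PTPRD, CNTNAP2, TENM2, ZFHX3 and IL1RAPL2 the annotated start nearest before the position beyond which 90% of members lay was within 0.279 kb of the gene start. PTPRD, a receptor phosphatase and synaptic adhesion molecule, held 40 members over 2299 kb, of which 38 lay in the downstream part and 90% beyond 1774 kb. CNTNAP2, a neurexin-family protein, held 42, of which 38 lay there, 90% beyond 1267 kb, with an end pileup of up to 63. Genes with the opposite pattern included NCAM2 (24 of 28 upstream), MACROD2 (53 of 65), MAGI2 (79 of 97), IMMP2L (42 of 52) and FGF14 (42 of 52).

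**Figure D5:**
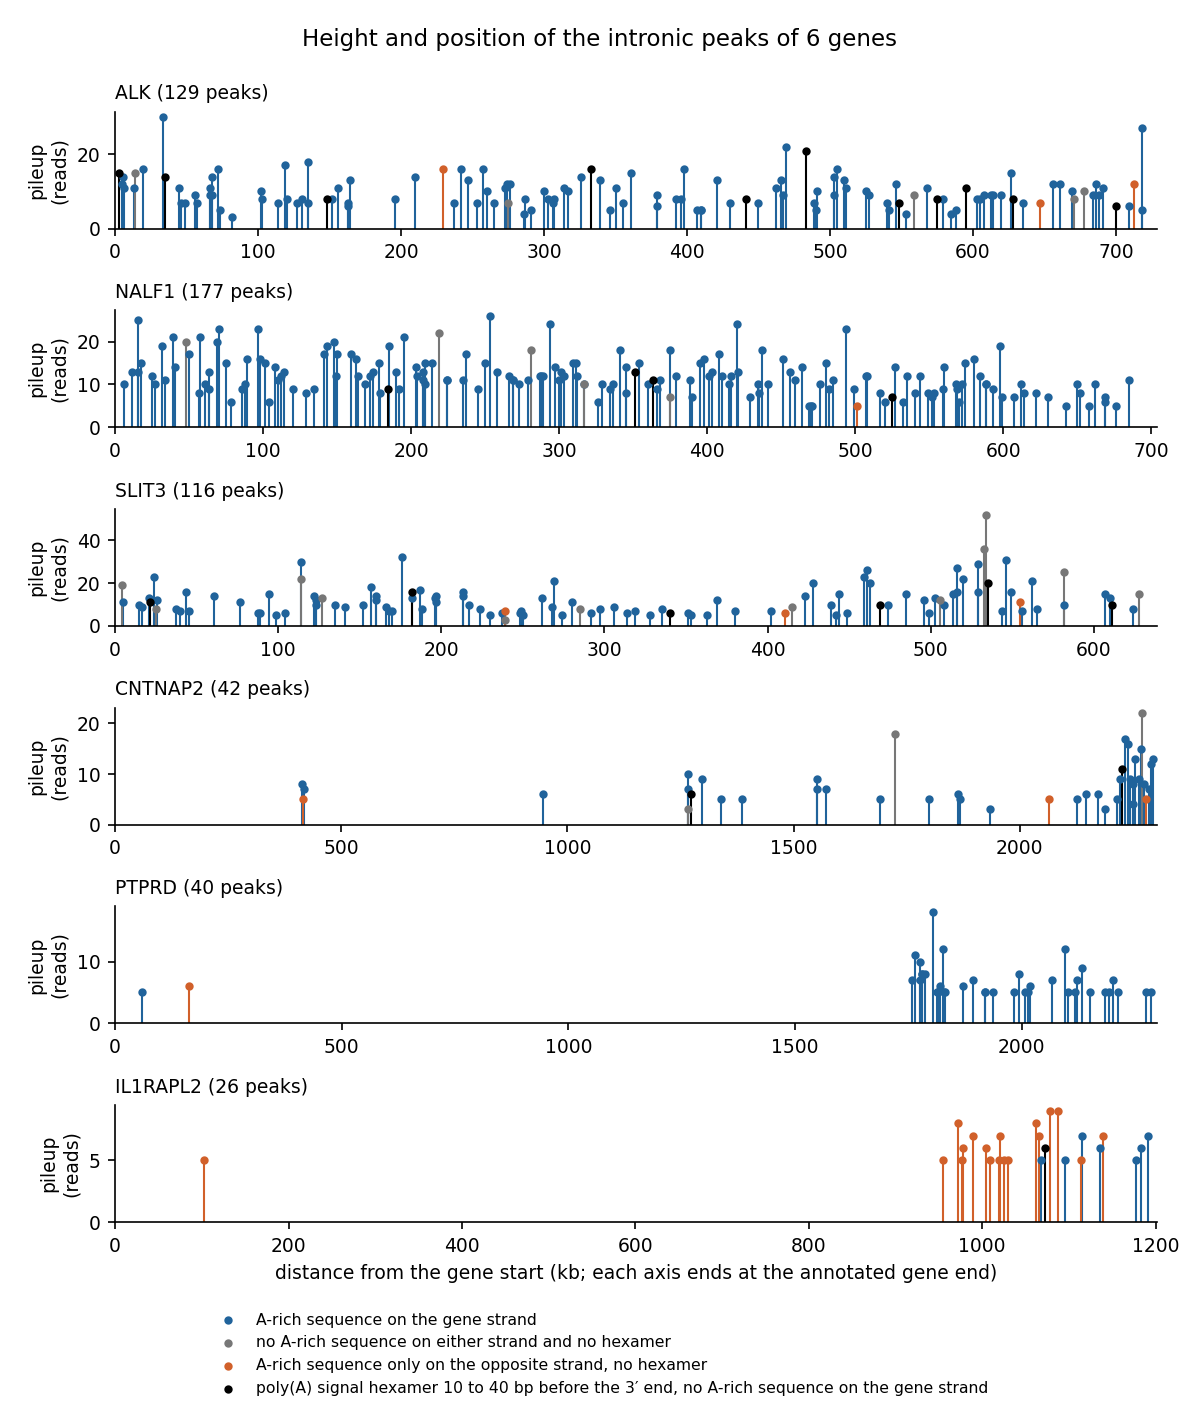
Pileup in reads (y axis) of each member by distance from the gene start in kb (x axis) in ALK, NALF1, SLIT3, CNTNAP2, PTPRD and IL1RAPL2, coloured by the sequence at the 3′ end. Members cover ALK, NALF1 and SLIT3 from start to end, crowd into the last part of PTPRD and CNTNAP2, and in IL1RAPL2 are A-rich mostly on the opposite strand only (orange).

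The list itself gives no strand to a peak, and the strand of the RNA was not tested. A-rich sequence stood on a single strand in most members. It followed the peak on the gene strand alone in 9261 members, on the opposite strand alone in 476, on both in 1714 and on neither in 702, and 212 genes had more on their own strand against 19 with fewer (exact sign test, adjusted p = 9.90e-42). In the 178 genes with 10 or more members A-rich on a single strand, the median share on the opposite strand was 3.64% (quartiles 1.45 and 6.55). IL1RAPL2, a receptor-like synaptic organiser, was the only gene above 50%, with 19 on the opposite strand and 2 on its own, or 90.5%. Of its 26 members 22 lay in intron 6, across 184 kb at chrX:105520946-105704738, with 18 of these A-rich on the opposite strand alone. The only annotated transcript on the opposite strand there is a U6 small nuclear RNA pseudogene, RNU6-207P. Pileups in IL1RAPL2 ran from 5 to 9 (median 6), and its end peak had 5. DMD (38.5%), CDH12 (30.4%) and STXBP5L (6 against 19 on its own strand) were the other genes above 20%. These genes were also singled out after their values were seen.

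The genes were also grouped in 6 lists by function, with the length limit applied. Over all 284 genes the median density was 3.60 members per 100 kb of intron, 250 genes had a member and 194 an end peak. Synaptic and neural adhesion genes had the lowest median of the 6 lists. Of 37, 35 had a member, 26 had an end peak and 14 lay above 3.60, and their median was 1.97. CTNNA2 (163 members, 11.3 per 100 kb) and SDK1, an immunoglobulin adhesion molecule (126, 13.2), held the most, while CTNNA3 held 4, DSCAM 2, PCDH15 1 and MDGA2 0. Ion channel and neurotransmitter receptor genes, a list that also holds channel-associated proteins and the glypicans GPC5 and GPC6, had a median of 8.28, with 11 of 20 above 3.60. GPC6 (188 members, 16.1 per 100 kb) and CACNA2D3 (161, 17.2) held the most, and the ryanodine receptor RYR2 and the glutamate receptors GRM5 and GRM7 held 1 each. Guidance, receptor kinase and phosphatase genes had a median of 5.77, with 12 of 22 above 3.60. ROBO2 (188 members, 10.9 per 100 kb) and ALK (129, 18.1) held the most, while ERBB4 held 5 members and the netrin receptor DCC 1.

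Genes of scaffolds, GTPases and second messengers had a median of 6.40, with 24 of 40 above 3.60. DGKB, a diacylglycerol kinase (110 members, 14.7 per 100 kb), and PLCB1, a phospholipase C (109, 13.8), held the most, and 7 genes of the list held 0. Transcription and RNA-binding genes had a median of 8.03, with 14 of 22 above 3.60, and of its 1419 members RBFOX1 (262) and AUTS2 (154) held the highest numbers. Genes at common fragile sites had a median of 3.21, with 14 of 31 above 3.60. Among these FHIT held 114 members and WWOX 67, whereas DMD held 14, so that genes known for the same kind of breakage ranged from 0 to 17.2 per 100 kb. Within every list but the adhesion and fragile site genes the median exceeded that of all 284, and no test was made of these medians.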

How the data were processed

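RNA from 8 libraries was sequenced from its poly(A) junction (QuantSeq 3′ REV). The authors trimmed reads, mapped them with STAR 2.5.1b to GRCh38 with ERCC spike-ins, keeping reads with several positions up to a limit, and merged all libraries before MACS2 2.1.1 called peaks with reads extended to 100 bp. Tool versions are from the submitters' processing notes. As deposited by the authors, the list gives per peak a fold enrichment (ratio of pileup to local background), the −log10 p-value and q-value, and a score derived from q. It holds 0 columns per library and 0 peaks with a strand, and authors' per-condition tracks were not used here. Whole pileups were recovered from fold and p-value in 100.0% of peaks (within 0.001), by MACS2's published formulas.

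Annotation came from GENCODE release 44, restricted to basic transcripts without readthrough, and only the nuclear chromosomes were used, with 0 peaks past a chromosome end of GRCh38. A peak in several genes was assigned to the longest. Coordinates count from 1. Shares carry Wilson and densities exact Poisson intervals (95%), which cover counting error only. Tests were two-sided exact McNemar and sign tests, gene strand against opposite strand, exact sign tests over genes, introns against ends (added after the values were seen), and Fisher's exact tests over peaks and over genes with 10 or more peaks, with Benjamini-Hochberg adjustment over 6 features between length classes, 5 between strands and 3 between introns and ends. Functions were tested on simulated data. Python 3.11.15, numpy 2.4.6, pandas 2.3.3, scipy 1.17.1 and pysam 0.24.0 were used.

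The members, gene lists and tests were chosen with earlier results of these data known. Genes were named by rule: the 10 with most members, the 5 densest with 10 or more members, the 3 longest, those of the 5 members with the highest −log10 q overall and among those with the hexamer and no A-rich sequence, ALK and PTPRD, and the 2 with most members of each list. Others are said to have been chosen after their values were seen, or stand as members of a list, as examples of genes without members, at the length limit, or nearest a gene start. Alternatives varied the length limit, gene length definition, q limit, overlap, annotation, A-stretch removal, motif set and window, and left out RBFOX1 or genes without an end peak. Results for some genes and sequences are not reported here.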

Additional observations from a re-analysis of the deposited data

How the results depend on the processing

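Of 101 alternative values, 81 kept direction and side of the threshold (or stayed inside the interval or within 1.5 times of the count). Some of these could not have differed. Leaving out genes without an end peak cannot change the density and strongest-peak comparisons, which used only genes with one. Removing A stretches without a motif can only raise the strand difference in PAS motifs. The strand difference in PAS motifs, the lower density, the lower −log10 q and, with 1 exception, the higher A-rich share of the longest genes kept theirs under every alternative run. The exception was a stretch of 25 A in place of A-rich sequence, with a difference of 0.0603 percentage points. The number of members was 6583 with a limit of 750 kb and 7793 with −log10 q of at least 5. Density was 5.52 per 100 kb with a limit of 400 kb, 4.58 with 750 kb, 3.36 with −log10 q of at least 5, 4.85 without A stretches lacking a motif, and 7.18 in genes with an end peak. The 1.66-point excess in PAS motifs over genes of 100 to 500 kb did not pass with limits of 400 kb (0.796) or 750 kb (1.10) or −log10 q of at least 5 (1.02). It turned with AATAAA and ATTAAA only (-2.97), a 50 bp window (-0.00580) and, chosen after seeing the data, in peaks without A-rich sequence (-6.63). The share of genes with more members upstream, 55.0%, passed with a limit of 400 kb (57.7%) and −log10 q of at least 5 (60.2%) and turned with 750 kb (49.6%). The share in the first intron, 20.7% against 19.2% of intron length, was 16.4% against 18.1% with 750 kb and 22.1% against 19.2% with −log10 q of at least 5. The lower share of genes whose strongest peak is at an end was -10.1 points in genes with 30 to 100 intronic peaks, also chosen after seeing the data, and did not pass. Where values moved with the limits, the cause was not tested. No paired analysis was possible because the list pools all libraries and holds no values per replicate. Low pileups, with a median of 7, limit every value.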

Other observations

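The mix of site kinds differed widely among genes. Of 160 genes with 20 or more members on 1 strand, 25 had 0 members with the hexamer and no A-rich sequence, and 4 had A-rich sequence after every member. These 4 were DIAPH2 (32 members), NELL1 (40), ANK3 (41), which encodes ankyrin-G, and EXOC6B (41). PTPRN2 had the most of the other kind, 14 of 52 members with the hexamer and no A-rich sequence, and A-rich sequence after 55.8%. SDK1 followed with 12 of 126, and ALK, KIF26B, the teneurin gene TENM4 (of 104 members) and the adenosine kinase gene ADK (of 84) had 11 each. RBFOX1, with the most members of all, had 0. These genes were chosen after their values were seen, and the differences between genes were not tested.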
